A study of Mus musculus with 8 samples.

Results

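The collagen and laminin genes are 53 of the 22744 genes in the expression table of this study. They were chosen by symbol alone, as every row named Col, a number, a and a number, or Lama, Lamb or Lamc and a number. The set holds 42 collagen genes and 11 laminin genes. The rule uses no measured value, but it was set with earlier results of these data known. Expression was measured in whole testis of mice on a C57BL/6 background at postnatal day 8, in 3 wild-type and 3 Dmrt6 null RNA-seq libraries that the design text calls biological replicates. The null allele is not described further in the labels. DMRT6 binding was measured once, in adult wild-type testis of a background labelled C57BL/6, Mixed, with 1 library precipitated by rabbit antibodies to DMRT6 and 1 input library. Dmrt6 is the gene listed as Dmrtb1, which encodes a DM-domain transcription factor of germ cells.

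Collagens are mostly secreted proteins whose chains wind around each other into a rigid helix. Fibrillar collagens build the fibres of connective tissue, and collagen IV builds the network of basement membranes. Laminins are cross-shaped trimers of an alpha, a beta and a gamma chain, and form the other network of a basement membrane. In the testis a basement membrane surrounds each seminiferous tubule between the Sertoli cells and spermatogonia inside and the contractile peritubular myoid cells outside. Collagen fibrils and fibroblast-like cells lie in the interstitium and the capsule. RNA of these genes from whole testis therefore mixes several somatic cell types. In such bulk samples, fewer cells of a type and less RNA per cell cannot be told apart.

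The 6 RNA libraries held between 23768316 and 29046494 reads over the genes of the table. Dmrtb1 lay at 3.03, 4.12 and 3.21 log2 CPM (read counts scaled to a common library size) in the wild-type libraries and at -0.88, -0.13 and 0.03 in the null libraries, so its groups did not overlap. Its difference, null minus wild type, was -3.78 (SE 0.36, limma adjusted p = 0.0516). The marker genes of Sertoli, Leydig and germ cells had reads in all 6 libraries. The library labelled null replicate 3 stood apart from the other 5. On the axis of largest variance over the genes tested, which carried 44.8% of the variance, it lay at 54.31 while the others lay between -20.17 and 1.68. Differences between genotypes are therefore also given without it.

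None of the 50 collagen and laminin genes that passed the filter on low values differed between null and wild type in the limma fit. The filter asked for a mean of at least 0 log2 CPM over the 6 libraries, and Col10a1, Col28a1 and Lamb3 missed it. Over all 16634 genes tested, 1 gene had an adjusted p below 0.05, which is 0.00601%. At an unadjusted p below 0.05, the collagens and laminins had 0 of 50 and all genes 578, or 3.47%. The voom fit on recovered reads also called 0 of the 50 at either threshold. The smallest adjusted p of a member was 0.755. Differences ran from -0.23 (Lama4) to 0.68 (Col2a1), with SEs between 0.09 and 0.49. The half-width of a member's 95% interval, without adjustment over genes, lay between 0.21 and 1.12 log2 units. Changes inside those intervals were not detectable with 3 libraries a group. The adjusted threshold is stricter, and Dmrtb1 itself, at -3.78 (SE 0.36), missed it with a limma adjusted p of 0.0516. Member changes larger than the half-widths could therefore also go uncalled.

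What varied was the spread among the 3 null libraries. The SD over null libraries was larger than that over wild-type libraries in 45 of 50 members, against 72.2% of all genes tested. The median SD of a member was 0.14 in wild type and 0.56 in null, and over all genes tested it was 0.13 and 0.22. Null replicate 3 was the highest of the 6 libraries in 40 of 50 members (34.5% of all genes). Null replicate 1 was the lowest of the 6 in 35 of 50 (10.1% of all genes). Both held together in 30 members. In 32 of 50, null replicate 3 lay at least 0.5 log2 units above the mean of the other 5 libraries, against 20.6% of all genes. Relative to the wild-type mean, the median member stood at -0.31 in null replicate 1, 0.08 in null replicate 2 and 0.64 in null replicate 3. Over all genes tested the same medians were 0.00, 0.01 and -0.01.

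The direction of the genotype difference followed null replicate 3. With all libraries, 36 of 50 members had a difference above 0 (51.7% of all genes) and the median difference was 0.14, against 0.01 over all genes. Without null replicate 3, 12 of 50 had a difference above 0 (51.1% of all genes) and the median was -0.13. Without null replicate 1, 45 of 50 had a difference above 0 (52.0% of all genes) and the median was 0.37. Values given without null replicate 3 rest on null replicates 1 and 2, and null replicate 1 was the lowest library in 35 of 50 members. Collagen and laminin reads together made up 0.800%, 0.732% and 0.775% of the reads in the wild-type libraries, and 0.601%, 0.824% and 1.21% in null replicates 1, 2 and 3. The wild-type libraries lay close together, with null replicate 1 under them and null replicate 3 above them.

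**Figure D1:**
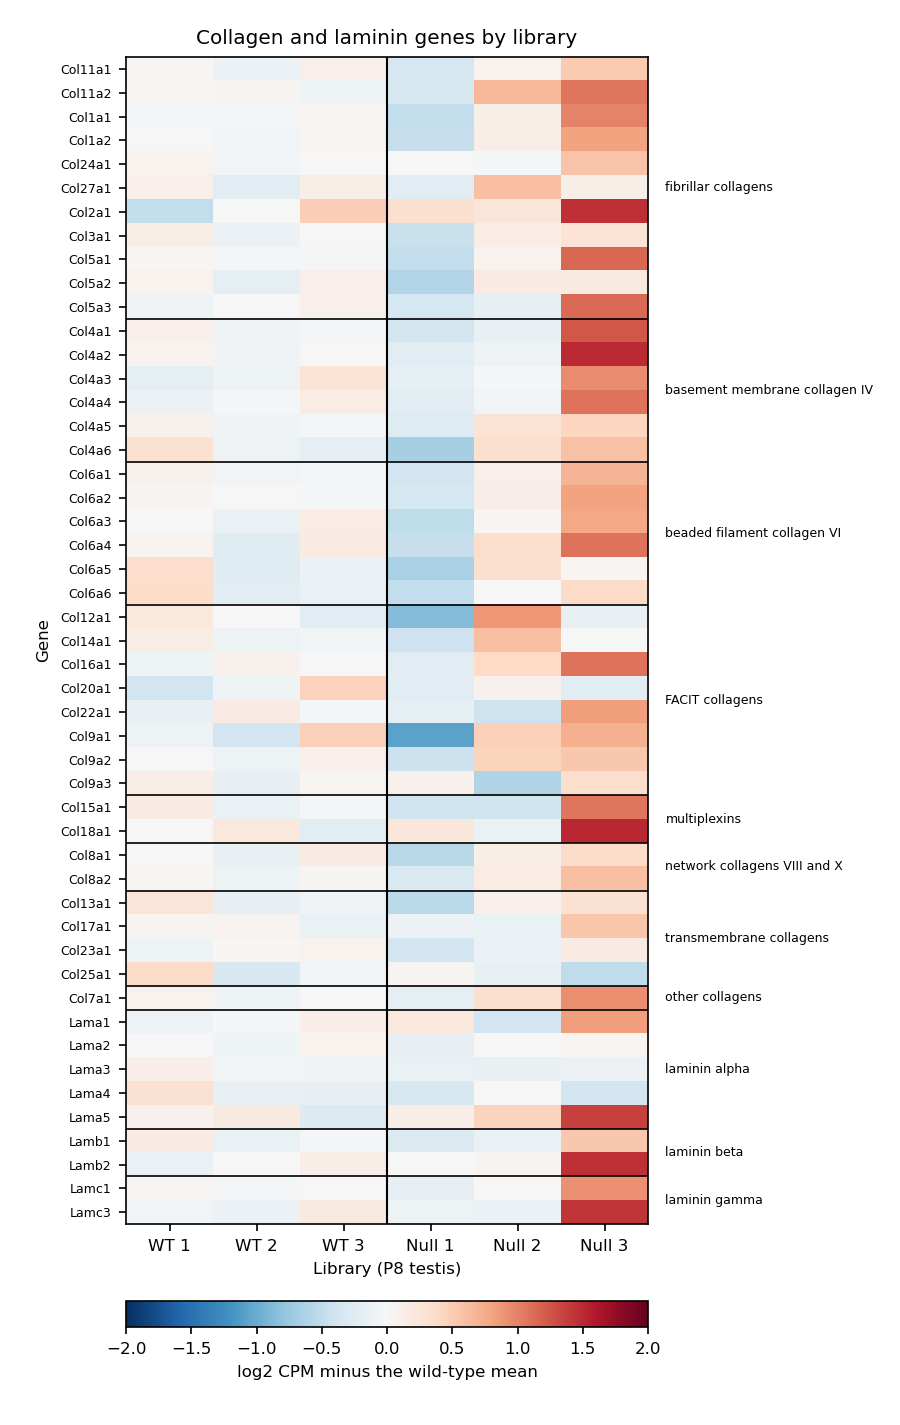
Colours show the log2 CPM minus the wild-type mean of 49 tested collagen and laminin genes in the 6 libraries (columns), with genes (rows) ordered by role. The column of null replicate 3 is above the wild-type mean for most genes and the column of null replicate 1 below it, with medians of 0.64 and -0.31 over the 50 tested.

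Basement membrane collagen IV shared this pattern in all 6 of its genes. Null replicate 3 was the highest library and null replicate 1 the lowest in 6 of 6. In Col4a3 null replicate 1 was lowest by a negligible margin, with wild-type replicate 1 also at 6.66. Col4a1 and Col4a2, which encode the chains found in nearly all basement membranes, lie head to head on chromosome 8. In the mm9 coordinates of the expression table, Col4a1 spans chr8:11198423-11312826 on the minus strand and Col4a2 spans chr8:11312805-11449287 on the plus strand. Their 5' ends are 21 bp apart, so reads from the short overlap cannot be assigned to 1 gene without strand. The RefSeq promoter windows (GRCm38.p6, 250 bases before to 50 after the annotated start) are shown because the pair shares 1 stretch of DNA read in opposite directions. Col4a1 is chr8:11312777-11313076 on the minus strand and Col4a2 is chr8:11312555-11312854 on the plus strand, and the capitals mark the 78 shared bases, which are reverse complements of each other.
Col4a1: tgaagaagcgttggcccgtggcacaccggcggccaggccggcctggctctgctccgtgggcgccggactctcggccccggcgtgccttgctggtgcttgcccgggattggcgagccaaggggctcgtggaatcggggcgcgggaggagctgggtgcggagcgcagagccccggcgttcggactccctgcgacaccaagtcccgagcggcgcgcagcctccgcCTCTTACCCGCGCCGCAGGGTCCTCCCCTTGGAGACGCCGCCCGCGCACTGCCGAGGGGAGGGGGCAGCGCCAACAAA
Col4a2: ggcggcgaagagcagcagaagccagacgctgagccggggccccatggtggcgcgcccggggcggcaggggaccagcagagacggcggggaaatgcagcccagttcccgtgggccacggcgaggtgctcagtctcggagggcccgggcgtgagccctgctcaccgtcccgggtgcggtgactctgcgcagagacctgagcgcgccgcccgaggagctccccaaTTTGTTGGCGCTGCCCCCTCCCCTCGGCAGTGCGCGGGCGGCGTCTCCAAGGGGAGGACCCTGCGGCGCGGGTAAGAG

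Col4a1 lay at 8.32, 8.15 and 8.19 log2 CPM in wild type and at 7.86, 8.07 and 9.45 in null replicates 1, 2 and 3. Null replicates 1 and 2 were under every wild-type library and null replicate 3 was above every one. The difference was 0.24 (SE 0.36), and -0.26 without null replicate 3. Col4a2 lay at 7.52, 7.37 and 7.46 in wild type and at 7.24, 7.35 and 8.93 in null, again with 1 null library far above the rest. Its difference was 0.39 (SE 0.39), and -0.15 without null replicate 3. The level of Col4a2 minus that of Col4a1 moved by 0.28 log2 units over the 6 libraries, while each gene on its own moved by 1.69 and 1.60.

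The chains of the glomerular type of collagen IV, Col4a3 and Col4a4, form another head-to-head pair, on chromosome 1 with 5' ends 72 bp apart. Col4a4 lay at 6.92, 6.99 and 7.19 in wild type and at 6.80, 6.98 and 8.12 in null. Col4a3 lay at 6.66, 6.73 and 7.11 in wild type and at 6.66, 6.81 and 7.78 in null. In both genes null replicate 3 was the highest library and null replicate 2 lay within the wild-type range. Their difference from each other moved by 0.26 over the 6 libraries. The X-linked pair Col4a5 and Col4a6, whose 5' ends are 1309 bp apart, stood less high in null replicate 3, at 0.42 above the wild-type mean in Col4a5 and 0.59 in Col4a6. Col4a6 minus Col4a5 moved by 0.61 over the 6 libraries, more than the difference within either other collagen IV pair, while the genes themselves moved by 1.26 and 0.69. The genotype differences of Col4a3, Col4a4, Col4a5 and Col4a6 were 0.25, 0.27, 0.14 and 0.08, and without null replicate 3 they were -0.10, -0.14, 0.0020 and -0.17. The share of reads in collagen IV genes was 0.0872%, 0.0814% and 0.0879% in the wild-type libraries and 0.0705%, 0.0837% and 0.183% in the null libraries.

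**Figure D2:**
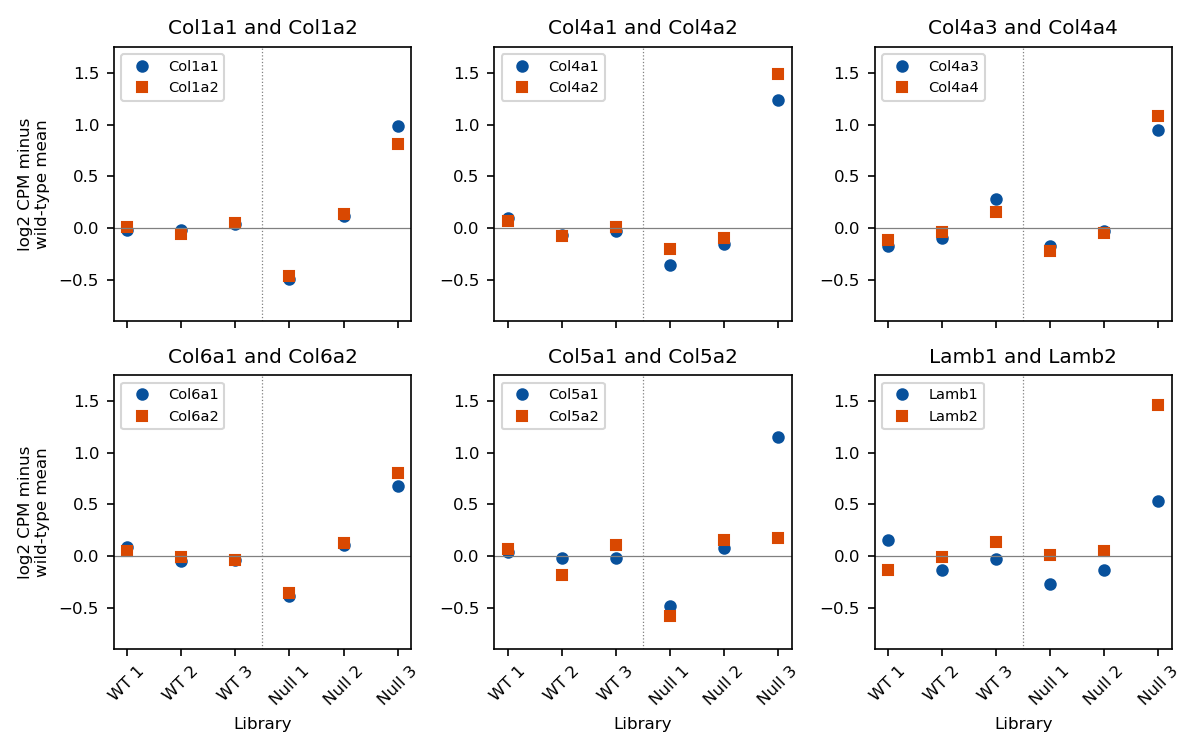
Points give log2 CPM minus the gene's own wild-type mean (vertical axis) in each of the 6 libraries (horizontal axis) for both chains of 6 pairs. The drawn chains of collagen I, IV and VI lie together in every library, while in null replicate 3 Col5a1 and Lamb2 lie at 1.16 and 1.46 and their partners Col5a2 and Lamb1 at 0.18 and 0.54.

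Among the fibrillar collagens, null replicate 3 was the highest library in 10 of 11 genes and null replicate 1 the lowest in 9 of 11. The share of reads in fibrillar genes was 0.401%, 0.363% and 0.390% in the wild-type libraries and 0.280%, 0.426% and 0.565% in the null libraries. Col1a1, the alpha-1 chain of collagen I, lay at 9.13, 9.14 and 9.19 in wild type and at 8.66, 9.26 and 10.14 in null. The wild-type libraries lay close together and the null libraries lay on both sides of them. Col1a2, the other chain of collagen I, lay at 10.01, 9.94 and 10.05 in wild type and at 9.54, 10.13 and 10.81 in null. The Col1a2 to Col1a1 difference moved by 0.21 over the libraries, against 1.28 and 1.48 for the genes themselves. The genotype difference was 0.20 (SE 0.31) for Col1a1 and 0.16 (SE 0.27) for Col1a2. Without null replicate 3 the values were -0.19 and -0.17.

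Col3a1, whose product forms fibrils with collagen I in soft tissue, lay at 10.93, 10.70 and 10.82 in wild type and at 10.37, 10.96 and 11.09 in null. Its group means were both 10.81, with a 95% interval of the difference from -0.42 to 0.41, and without null replicate 3 the difference was -0.15. Col3a1 followed the order of collagen I but with less spread among the null libraries (SD 0.39, against 0.74 for Col1a1). Collagen V regulates the width of collagen I fibrils, and its chains did not move together. Col5a1 lay at 6.94, 6.88 and 6.88 in wild type and at 6.41, 6.97 and 8.05 in null, whereas Col5a2 lay at 8.04, 7.79 and 8.08 and at 7.38, 8.13 and 8.14. The Col5a2 minus Col5a1 difference was between 0.91 and 1.20 in 5 libraries and 0.09 in null replicate 3. Col5a3, which can replace a chain of collagen V, lay at 4.27, 4.37 and 4.46 in wild type and 4.02, 4.19 and 5.50 in null.

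The cartilage collagen gene Col2a1 had the largest fitted difference of any member, 0.68 (SE 0.41, limma adjusted p = 0.755, 95% interval -0.27 to 1.62). It rested on 20, 35 and 46 reads in the wild-type libraries and 39, 39 and 85 in the null libraries, and the groups overlapped. The difference was 0.28 without null replicate 3. Col11a2, a minor fibrillar chain, was read 47, 58 and 49 times in the wild-type and 40, 84 and 104 times in the null libraries, with a difference of 0.47 (SE 0.36), and 0.17 without null replicate 3. Col11a1 (0.09, SE 0.21), Col24a1 (0.18, SE 0.21) and Col27a1 (0.17, SE 0.22) differed by less than their SE, and had -0.13, -0.02 and 0.19 without null replicate 3. Col27a1 was the 1 fibrillar gene in which null replicate 3 was not the highest library. It reached 4.98 in null replicate 2 and 4.49 in null replicate 3.

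Collagen VI forms beaded microfibrils near cell surfaces. In its 6 genes null replicate 3 was the highest in 5 and null replicate 1 the lowest in 6. Col6a1 lay at 8.80, 8.67 and 8.68 in wild type and at 8.33, 8.83 and 9.40 in null. Col6a2, the partner chain, lay at 8.26, 8.20 and 8.17 and at 7.85, 8.34 and 9.01. Their difference moved by 0.17, the smallest of the 11 pairs of chains compared, and Col6a3 minus Col6a1 moved by 0.31. The wild-type libraries of Col6a1 and Col6a2 lay between null replicates 1 and 3. The genotype differences were 0.13 (SE 0.23), 0.19 (SE 0.25) and 0.09 (SE 0.28) for Col6a1, Col6a2 and Col6a3, and -0.14, -0.11 and -0.25 without null replicate 3. Col6a5, a chain that can replace Col6a3's product, was the exception, with 6.59, 6.00 and 6.13 in wild type and 5.59, 6.56 and 6.29 in null. Its relatives Col6a4 and Col6a6 had differences of 0.32 (SE 0.34) and -0.04 (SE 0.25), and -0.06 and -0.24 without null replicate 3.

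The collagens that decorate or bridge fibrils (FACIT collagens, with an interrupted helix) shared the pattern less. Null replicate 3 was the highest library in 5 of 8 and null replicate 1 the lowest in 5 of 8. Col14a1, which binds fibril surfaces, lay at 7.07, 6.82 and 6.87 in wild type and at 6.50, 7.52 and 6.91 in null. Col12a1, its close relative, lay at 5.81, 5.60 and 5.37 and at 4.72, 6.46 and 5.45. In both, null replicate 2 was the highest library, null replicate 1 the lowest, and null replicate 3 within the wild-type range. Col16a1 had the largest FACIT difference, 0.42 (SE 0.28), with 5.72, 5.88 and 5.79 in wild type and 5.57, 6.20 and 6.88 in null. Without null replicate 3 it was 0.09. Col9a2 minus Col9a3, chains of the cartilage collagen IX trimer, ranged over 1.55 log2 units, more than either gene alone. Col20a1 had between 63 and 130 reads a library and lay at 1.41, 1.70 and 2.25 in wild type and at 1.57, 1.88 and 1.57 in null, all within the wild-type range, a difference of -0.11 (SE 0.26), and -0.06 without null replicate 3. Col22a1, of tissue junctions, had 0.08 (SE 0.31), and Col9a1 had 0.04 (SE 0.49), the largest SE of the members. Both had -0.30 without null replicate 3.

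Multiplexins are basement-membrane-zone collagens that carry sugar chains. Col18a1, the precursor of endostatin, lay at 6.97, 7.18 and 6.76 in wild type and at 7.20, 6.84 and 8.48 in null. Its difference was 0.54 (SE 0.37), and 0.05 without null replicate 3. Col15a1 lay at 5.76, 5.47 and 5.56 and at 5.20, 5.20 and 6.67. In Col15a1 both other null libraries were under every wild-type library, so its difference was 0.10 with all libraries and -0.39 without null replicate 3. Col7a1, the anchoring fibril collagen, lay at 2.99, 2.84 and 2.93 in wild type and at 2.74, 3.24 and 3.84 in null, a difference of 0.36 (SE 0.27), and 0.07 without null replicate 3. The network collagen gene Col8a2, of vessel and corneal membranes, lay at 4.77, 4.63 and 4.78 and at 4.43, 4.88 and 5.34. Its partner Col8a1 lay at 1.70, 1.56 and 1.87 and at 1.15, 1.83 and 2.07. In all of these genes except Col18a1, null replicate 1 was the lowest library or tied for it, and null replicate 3 was the highest. The differences of Col8a2 and Col8a1 were 0.15 (SE 0.22) and -0.02 (SE 0.28), and -0.07 and -0.22 without null replicate 3.

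The 4 transmembrane collagens are anchored in the plasma membrane. Col13a1, found at cell junctions, lay at 3.84, 3.43 and 3.53 in wild type and at 3.06, 3.69 and 3.91 in null, a difference of -0.04 (SE 0.24). Col23a1 lay at 4.49, 4.63 and 4.66 and at 4.22, 4.49 and 4.76, a difference of -0.11 (SE 0.16). Both had null replicate 1 lowest and null replicate 3 highest. Col25a1, which is also known from amyloid plaques, lay at 3.93, 3.22 and 3.48 and at 3.60, 3.39 and 3.04, with null replicate 3 the lowest library and a difference of -0.20 (SE 0.23). Col17a1, of hemidesmosomes, had 0.10 (SE 0.21). Without null replicate 3 the differences were -0.22, -0.24, -0.04 and -0.12 for Col13a1, Col23a1, Col25a1 and Col17a1. Among the untested genes, Col10a1, of growth plate cartilage, had between 0 and 7 reads a library. Its 0 reads in null replicate 3 allow up to 0.116 CPM on counting error alone. Col28a1 had between 10 and 43 reads and Lamb3 between 20 and 32.

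**Figure D3:**
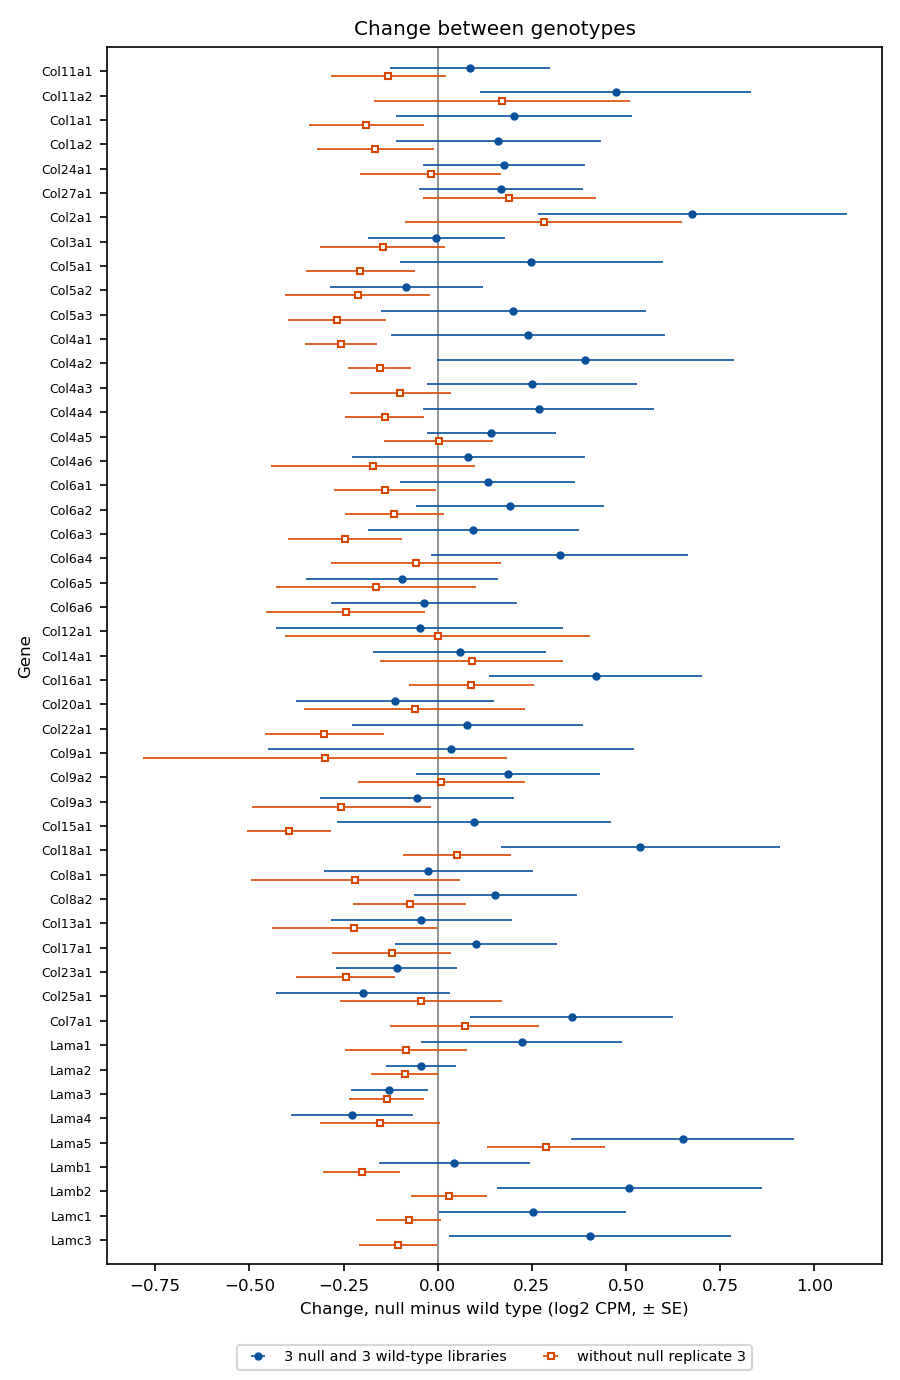
Filled points give the fitted difference, null minus wild type, of 49 tested collagen and laminin genes on the log2 CPM scale with its SE, and open squares the same without null replicate 3. With all 6 libraries 35 of 49 points lie above 0, and without null replicate 3, 11 of 49 do.

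Laminin genes varied by chain. Of the 10 tested, null replicate 3 was the highest library in 6 and null replicate 1 the lowest in 3. Lama2, the alpha chain of muscle and peritubular basement membranes, had the smallest SE of the 50 members. It lay at 8.91, 8.82 and 8.98 in wild type and at 8.74, 8.89 and 8.94 in null, a difference of -0.05 (SE 0.09, 95% interval -0.26 to 0.17), and -0.09 without null replicate 3. Null replicate 3, high in most collagens, lay 0.04 above the wild-type mean of Lama2. Lama4, the alpha chain of vessel walls, lay at 6.51, 6.07 and 6.06 and at 5.89, 6.23 and 5.83. Its difference was the lowest of all members, -0.23 (SE 0.16, 95% interval -0.60 to 0.15), and null replicate 3 was the lowest library. Without it the difference was -0.15.

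Lama3, the alpha chain of epithelial laminins, was the 1 member of 50 whose genotypes did not overlap, all 3 null libraries lying on the same side of all 3 wild-type libraries, against 11.1% of all genes. It lay at 6.05, 5.85 and 5.84 in wild type and at 5.79, 5.77 and 5.80 in null. The gap between the groups was small, and the difference was -0.13 (SE 0.10, limma adjusted p = 0.755), and -0.14 without null replicate 3.

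Lama5, the alpha chain of mature epithelial basement membranes, had the largest laminin difference and lay at chr2:179911078-179960564 (mm9). It lay at 5.09, 5.17 and 4.73 in wild type and at 5.13, 5.44 and 6.37 in null, where null replicate 1 fell inside the wild-type range. The difference was 0.65 (SE 0.30, limma adjusted p = 0.755, 95% interval -0.03 to 1.33), and 0.29 without null replicate 3. Lama1, the alpha chain of embryonic laminin and of tubule basement membranes, lay at 6.20, 6.26 and 6.44 and at 6.51, 5.92 and 7.14. The highest library was again null replicate 3, and null replicate 2 the lowest.

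Lamb2 and Lamb1 are alternative beta chains, and their balance moved in null replicate 3. Lamb2 lay at 6.10, 6.22 and 6.37 in wild type and at 6.24, 6.28 and 7.69 in null. Lamb1 lay at 8.51, 8.23 and 8.33 and at 8.09, 8.22 and 8.89. Lamb2 minus Lamb1 was -1.20 in null replicate 3 and between -2.41 and -1.85 in the other 5 libraries. Lamb2 differed by 0.51 (SE 0.35) with all libraries and by 0.03 without null replicate 3. The gamma chains Lamc1, shared by most laminins, and Lamc3 were highest in the same library. Lamc1 lay at 7.02, 6.98 and 7.01 and at 6.84, 7.02 and 7.92, and Lamc3 at 6.67, 6.60 and 6.90 and at 6.63, 6.61 and 8.15. In both, null replicates 1 and 2 lay close to the wild-type libraries. Of the 33 members tested, named by rule and reported, 6 kept the sign of their difference in every setting. They were Col18a1, Col2a1, Lama3, Lama4, Lama5 and Lamb2, each with a limma adjusted p of 0.755. Some signs rest on small values, 0.016 (SE 0.13) for Lamb2 with array weights and 0.05 for Col18a1 without null replicate 3. The share of all genes that kept their sign was not counted.

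Genes that make, bind or degrade collagen were examined as lists, and none of their members passed the limma threshold. Of 25 tested genes of collagen synthesis and crosslinking, 14 differed above 0 and 11 below, with a median of 0.02. The median without null replicate 3 was -0.08. Named by the smallest p, the collagen galactosyltransferase gene Glt25d1 had 0.31 (0.16 without null replicate 3), the cyclophilin gene Ppib -0.19 (-0.09) and the procollagen protease gene Adamts3 -0.28 (-0.41). Of 10 basement membrane partners, 8 were above 0 with a median of 0.23. Ntn4, a laminin-binding netrin, had 0.45 and 0.16 without null replicate 3. The heparan sulfate proteoglycan gene Agrn had 0.38, and its sign turned without that library (-0.01). The integrin ligand gene Npnt had 0.27, and 0.44 without it. In 8 of these 10 the highest library was null replicate 3, and the median without it was -0.10.

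Of 15 collagen and laminin receptor genes, 10 were above 0 and 5 below, with a median of 0.07, and -0.0016 without null replicate 3. Itgb4, the beta chain of the hemidesmosome integrin that binds laminin, had 0.99 (SE 0.34), and 0.79 without null replicate 3. The collagen receptor kinase gene Ddr1 had 0.51, and 0.10 without that library. Itgb1, the common integrin beta chain, had -0.17, and -0.09 without it. Of 11 matrix breakdown genes, 6 were above 0 with a median of 0.06, and -0.15 without null replicate 3. The metalloproteinase inhibitor gene Timp1 had -0.54 (SE 0.19, and -0.46 without that library). The membrane metalloproteinase gene Mmp16 had -0.23 (-0.25 without it), and Reck, a membrane inhibitor of metalloproteinases, 0.24 (0.15 without it). Of 17 other matrix protein genes, 8 were above 0 and 9 below, with a median of -0.07, and -0.13 without null replicate 3. The genes of smallest p in that list were Dcn (-0.28, and -0.17 without it), Bgn (-0.22 and -0.17) and Lum (-0.31 and -0.20), which encode small leucine-rich proteoglycans. Fmod, of the same protein class and named after its value was seen, had 0.15 and 0.14. The excess of null replicate 3 over the other 5 libraries had a median of 1.06 in collagen IV and 0.88 in fibrillar collagens. In the lists it was 0.81 for basement membrane partners, 0.30 for synthesis and crosslinking, 0.29 for receptors, 0.25 for matrix breakdown and 0.10 for other matrix proteins. The other matrix proteins were mixed, with 1.30 in Eln and 1.08 in Fn1 but -0.64 in Vcan and -0.58 in Postn. In that list null replicate 3 was highest in 8 of 17 genes and null replicate 1 lowest in 11. Null replicate 3 was highest in 14 of 25 synthesis, 7 of 15 receptor and 5 of 11 breakdown genes (34.5% of all genes).

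Stromal fibroblast and peritubular myoid markers did not follow the collagens in null replicate 3. It was the highest library in 0 of 7 stromal fibroblast markers and in 0 of 6 peritubular myoid markers. Summed fibroblast markers gave 1574, 1279 and 1562 CPM in wild type and 1167, 1510 and 1095 CPM in null. Summed myoid markers gave 1632, 1806 and 1532 CPM in wild type and 1402, 2405 and 1397 CPM in null, with null replicate 2 the highest. Null replicate 3 was the lowest library for both summed lists, and its collagen and laminin reads were the highest. For the myoid list the margin was small, 1397 against 1402 CPM in null replicate 1. Null replicate 1, the lowest library in most collagen genes, was the next lowest for both summed lists.

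Sertoli cell markers were mixed in null replicate 3. It was the highest library in 4 of 7 of them (Sox9, Wt1, Gata1 and Amh), against 34.5% of all genes. The median excess over the other 5 libraries was 0.68. The excess was 0.36 in Cldn11, -0.12 in Clu and -0.28 in Fshr, where null replicate 3 was the lowest library. The sum of the 7 markers (2153, 2123 and 2311 CPM in wild type, 2474, 1884 and 2323 CPM in null) was highest in null replicate 1. Most of each sum is Clu, at 10.68, 10.63 and 10.83 log2 CPM in wild type and 10.84, 10.51 and 10.57 in null. Summed germ cell markers ranged from 1055 to 1194 CPM over the 6 libraries. The largest part of each sum is Dazl, at 9.14, 9.25 and 9.14 log2 CPM in wild type and 9.15, 9.21 and 9.15 in null. Null replicate 3 was the highest library in 2 of 6 germ cell markers, Zbtb16 (excess 0.93) and Sohlh1 (0.55). Its excess lay between -0.15 and 0.02 in Dazl, Ddx4, Mael and Tex101. Macrophage markers were lowest in null replicate 3, at 66.3 CPM against 71.5 to 114 CPM in the others. Leydig cell markers were lowest there too, at 450 CPM against 472 to 729 CPM. Summed endothelial markers (153 to 231 CPM) and mesothelium and capsule markers (40.1 to 107 CPM) had null replicate 3 inside their range. The endothelial list was split, with null replicate 3 the highest library for Cdh5 and Cldn5 and the lowest for Tek, Pecam1 and Emcn. Markers of epididymis ranged from 7.80 to 125 CPM across libraries, with 0 reads of Crisp1 and of Lcn8 in some library, and the keratin gene Krt5 also had 0 reads in some library. Summed keratinised epithelium and skeletal muscle markers ranged from 20.2 to 45.6 and 7.19 to 15.8 CPM. Summed adipocyte markers gave 81.7, 18.3 and 48.6 CPM in wild type and 10.8, 14.2 and 22.1 CPM in null. The fitted difference was below 0 in all 3 tested adipocyte markers and all 5 macrophage markers. It was above 0 in all 5 mesothelium and capsule markers, and none of these genes passed the limma threshold. Cartilage and bone markers, with Col9a1 among them, gave 4.18 to 6.04 CPM in 5 libraries and 9.67 CPM in null replicate 3. The part of cell composition, dissection or library preparation in the collagen and laminin values was not tested.

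**Figure D4:**
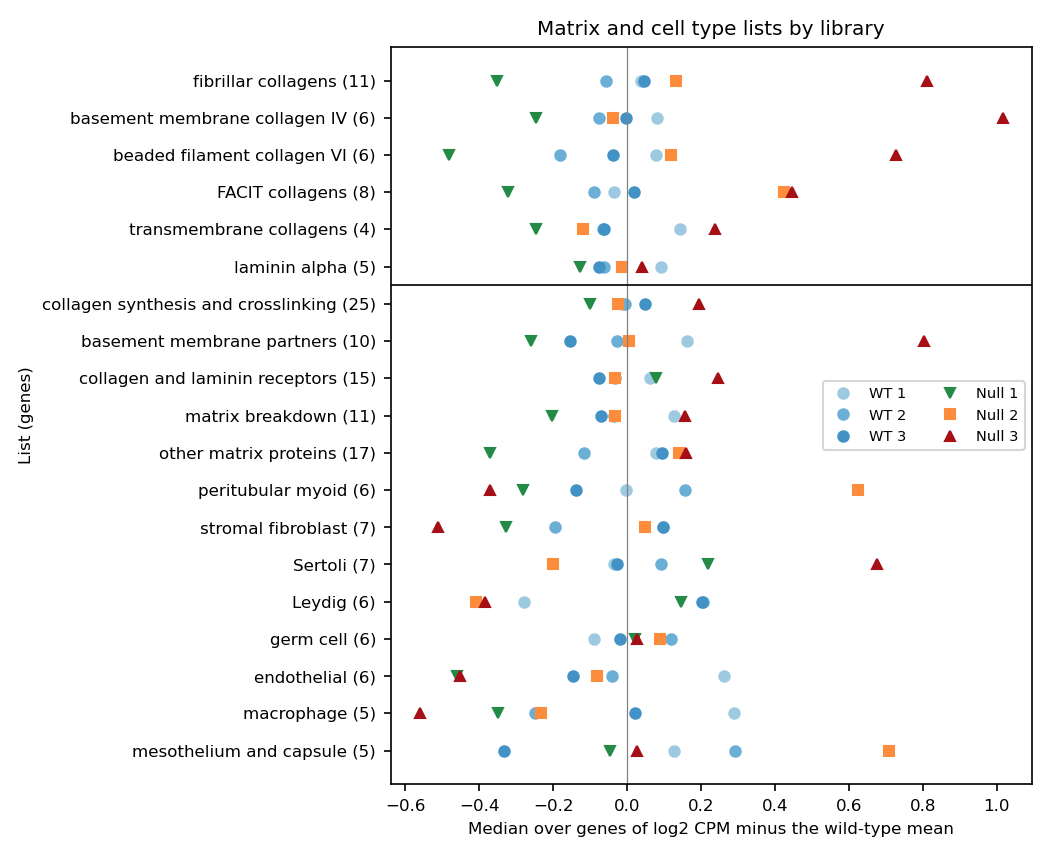
Points give the median over a list's genes of log2 CPM minus the wild-type mean (horizontal axis) in each of the 6 libraries, with the number of tested genes after each list's name and the collagen and laminin groups above the line. Null replicate 3 lies far right for fibrillar collagens, collagen IV and basement membrane partners, and left of every wild-type library for the peritubular myoid and stromal fibroblast markers.

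DMRT6 binding in adult testis was compared by the distance from each gene's 5' end to the middle of each peak. The authors' list holds 14862 peaks with a median score of 94.7, called on 1 library against 1 input, so a peak has no replicate check. A peak middle lay within 10 kb of the 5' end of 10 of 53 members, against 27.9% of all genes. Within 1 kb the count was 1 of 53, against 12.9%. A peak overlapped the body of 21 of 53, against 24.9%, but the members are long genes with a median span of 107 kb, against 14.6 kb over all genes. Among genes whose span lay between 38.2 and 141 kb, 13 of 27 members and 44.3% of all genes had a peak over the body. In all, 30 members had neither a peak over the body nor one within 10 kb.

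The highest-scoring peak within 10 kb was that of Col5a1, at chr2:27737186-27737478 (mm9), 4613 bp upstream, with the authors' score of 613. Col6a2 had a peak 1806 bp upstream with a score of 333, and Col18a1 had peaks 3269 and 3493 bp upstream with scores of 215 and 77.0. A peak at chr1:82587698-82587862 with a score of 110 was the nearest peak of both divergent genes, 4284 bp inside Col4a3 and 4356 bp upstream of Col4a4. Lama1 was the 1 laminin gene with a peak within 10 kb, 4636 bp upstream with a score of 146. The others were Col5a3, described with its promoter, Col13a1 (2658 bp upstream, 115), Col2a1 (6662 bp inside, 69.9) and Col9a3 (8209 bp upstream, 69.1). Col1a1, Col1a2, Col3a1, Col4a1, Col4a2 and Col6a1 had no peak within 10 kb of the 5' end. Of the 10 genes with such a peak, none differed between genotypes in the postnatal day 8 libraries under limma. Over all 16634 genes tested 1 did (0.00601%), so this count says nothing particular about genes with a peak.

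**Figure D5:**
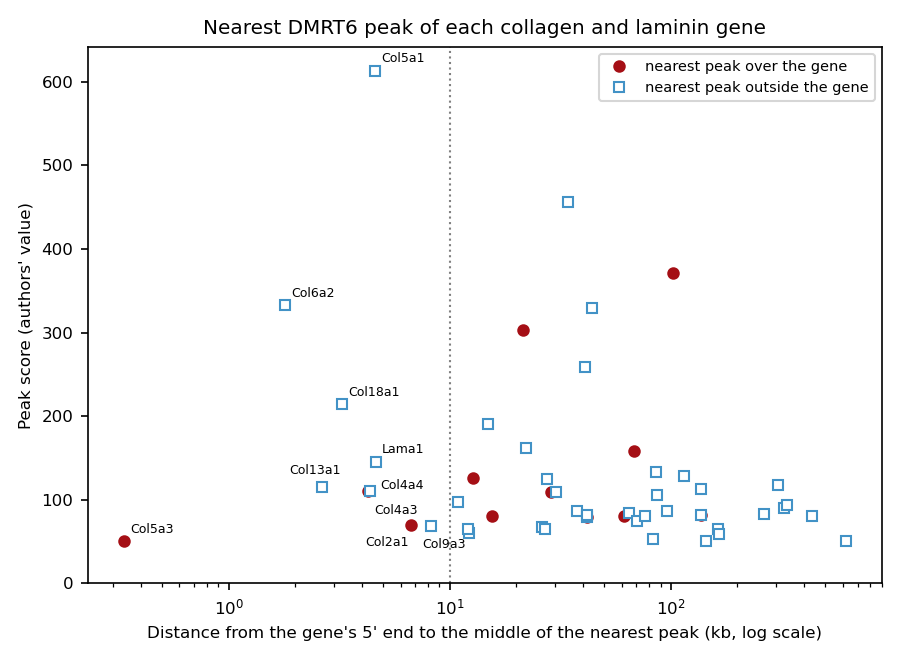
Each point is the nearest DMRT6 peak to a collagen or laminin gene, with the distance from the gene's 5' end in kb (log axis) against the authors' score, and the dotted line marks 10 kb. Only Col5a3 has a peak middle within 1 kb, with a score of 50.21, and Col5a1 has the highest score within 10 kb, 613.

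Col5a3 had the 1 peak within 1 kb, at chr9:20619101-20619247 (mm9), 337 bp inside the gene, with a score of 50.21 that lies near the lowest score of the list, 50.02. Its promoter window is shown for that reason, as chr9:20815018-20815317 on the minus strand in GRCm38.p6, with capitals for the motifs CCAAT and GGGCGG on either strand. The window holds CCAAT at 1 place and GGGCGG at 3.
Col5a3: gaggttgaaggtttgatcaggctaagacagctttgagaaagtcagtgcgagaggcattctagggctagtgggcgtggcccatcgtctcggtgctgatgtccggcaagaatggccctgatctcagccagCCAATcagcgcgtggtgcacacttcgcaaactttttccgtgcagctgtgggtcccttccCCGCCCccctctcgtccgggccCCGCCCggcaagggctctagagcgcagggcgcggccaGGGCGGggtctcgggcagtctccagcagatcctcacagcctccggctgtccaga

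RefSeq windows of 300 bases were found for 39 of the 53 members, 43 windows in all because some genes have more than 1 start. Each motif was searched on both strands, with N standing for any base. GGGCGG occurred in 26 of 43 windows, against 35.7% of all 32851 windows, and CCAAT in 14, against 37.4%. TATAAA occurred in 5, against 13.6%. ACANTGT, the core of the DM-domain motif, occurred in 1, that of Col28a1, against 7.54%. The median GC content was 59.7% in the members' windows and 52.7% over all windows. None of these matches is a measured binding site.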

How the data were processed

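The members and the gene lists were chosen with earlier results of these data known. The submitters' processing notes name STAR 2.3.0e, Bowtie2, Picard, edgeR and the mm9 build without saying which step each served, and the RNA libraries used the TruSeq protocol, per the labels. Which program counted reads, under which annotation release and whether by strand, is not given in the sources used here. The authors deposited log2 CPM values per gene. Under a prior of 0.25 reads on average, 100% of these values gave back whole reads (tolerance 1e-06), so the depth of each library could be recovered. The authors deposited peaks with a score per peak, and the file is named for MACS 1.4 output. This score served only to describe and filter peaks.

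Genes with a mean of at least 0 log2 CPM over the 6 libraries were tested with limma 3.58.1 (lmFit and eBayes with trend, in R 4.3.3) on the deposited values, with Benjamini-Hochberg adjustment over all 16634 genes and a threshold of 0.05. A fold change on this scale includes the small prior. Count tests of edgeR or DESeq2 were not run on the recovered reads, and voom on those reads was tried in their place. The procedure was tested on simulated data. Values in every library were given for the 3 members of highest mean in each role group, the 6 of smallest p in each direction, and the 6 of highest score among those with a peak within 10 kb. Col10a1, Col28a1 and Lamb3, which missed the filter on low values, are given as ranges of reads instead. For each pathway list the 3 genes of smallest p were named. Other members are described as values and were chosen after their values were seen. Levels are not ranked between genes because transcript lengths were not used here. Promoter windows came from RefSeq (GRCm38.p6), and 14 members had no window in that table. Peak distances use the mm9 coordinates of the deposited files. Decorin and lumican genes are in both the fibroblast marker list and the list of other matrix proteins, and the cartilage list holds Col9a1, a member, and Acan and Matn1, which are also among the other matrix proteins. Lists of Leydig, endothelial, mesothelium, keratinised epithelium, skeletal muscle and adipocyte markers were also summed. The values of 1 member are not reported here, although it is included in the counts and group values.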

Additional observations from a re-analysis of the deposited data

How the results depend on the processing

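With 3 libraries a group, null replicates 1 and 3 set most values here, in opposite directions. No member passed the threshold in any of the 15 other settings, and the smallest adjusted p of a member was 0.0612, with array weights. At an unadjusted p below 0.05 there were 28 of 50 members with array weights, all lower in null (28.4% of all genes). Without null replicate 1 there were 9, all higher in null (4.08%). Without null replicate 2 there were 2, both higher (15.3%), and without null replicate 3 there were 2, both lower (3.13%). Quantile normalization gave 1 (3.64%) and median centring 1 (3.55%), each higher in null. Array weights gave null replicate 1 a weight of 19.3 and null replicate 3 a weight of 0.153, and their estimation did not converge. The number of genes past the threshold, 1 in the limma fit, was 3 with no filter on low values, 0 at a mean of at least 2 log2 CPM, 2 with quantile normalization, 3 with median centring, 2 with a prior of 2 reads and 136 with array weights. It ran from 0 (without null replicate 1) to 5 (without null replicate 3) when 1 library was left out. The median difference of the members ran from -0.13 to 0.37 with 1 library left out and was -0.27 with array weights. The count of members with a peak near the 5' end, 10 within 10 kb, was 1 within 1 kb, 30 of 53 (56.6%) within 50 kb, against 61.7% of all genes, and 21 for a peak over the gene body. With the replicate number as a block, 2 genes and 0 members passed, and the median difference stayed 0.14. Same-numbered libraries had correlations of -0.09, -0.22 and -0.04, so the numbers were not taken to pair the libraries.

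With array weights the sign turned for Col14a1 (-0.37), Col16a1 (-0.22), Col4a1 (-0.33), Col4a2 (-0.17), Col4a4 (-0.21), Col4a3 (-0.15), Col6a1 (-0.36), Col6a2 (-0.34), Col6a3 (-0.47), Col1a2 (-0.43), Col1a1 (-0.47), Col5a1 (-0.46), Col15a1 (-0.35), Col8a2 (-0.27), Col7a1 (-0.14), Col25a1 (0.13), Lamb1 (-0.23), Lamc1 (-0.15) and Lamc3 (-0.065). Quantile normalization turned Lama2 to 0.0032 and median centring turned Lamb1 to -0.0027. With 1 library left out, differences that turned ran from -0.21 to 0.30 (Col14a1), -0.51 to 0.36 (Col12a1), -0.26 to 0.54 (Col4a1), -0.15 to 0.69 (Col4a2), -0.14 to 0.52 (Col4a4), -0.10 to 0.46 (Col4a3), -0.14 to 0.39 (Col6a1), -0.11 to 0.47 (Col6a2), -0.25 to 0.40 (Col6a3), -0.15 to 0.22 (Col3a1), -0.17 to 0.47 (Col1a2), -0.19 to 0.55 (Col1a1), -0.21 to 0.62 (Col5a1), -0.39 to 0.34 (Col15a1), -0.074 to 0.38 (Col8a2), -0.22 to 0.24 (Col8a1), -0.24 to 0.026 (Col23a1), -0.22 to 0.20 (Col13a1), -0.30 to 0.12 (Col20a1), -0.088 to 0.012 (Lama2), -0.085 to 0.52 (Lama1), -0.20 to 0.20 (Lamb1), -0.077 to 0.46 (Lamc1) and -0.11 to 0.66 (Lamc3). Beyond the changes of weight or library that define these settings, the cause was not tested. The ChIP peaks have no replicate, and the low-read genes Col2a1, Col9a1 and Col11a2 are limited by depth.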
